A study of Rattus norvegicus with 11 samples.

Results

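The Rab GTPases are small guanine nucleotide-binding proteins that mark the membranes of the cell, and their transcripts were followed here in the islets of daughters of male rats fed a high-fat diet (HFD). Members were the genes of the gene-level array table whose symbol is Rab followed by a number and at most 1 letter, which gave 53 of the 14324 genes with a single symbol, on 59 of 27342 array features (probes). This rule used symbols only and no measured value, but the members and lists were chosen with earlier results of these data known. RefSeq lists 58 rat Rab genes of this form, and Rab26, Rab29, Rab37, Rab42 and Rab44 were not analysed here. A further 13 entries of that annotation are Rab pseudogenes, and near-identical copies such as these or the close pairs of the family could share array signal, which was not tested.

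A Rab protein cycles between a form bound to GDP, held in the cytosol by GDP dissociation inhibitors, and a form bound to GTP, which sits on a membrane through attached geranylgeranyl lipids and recruits effector proteins. Exchange factors load GTP, and GTPase-activating proteins of the TBC family end the signal. In beta cells Rab27a and the Rab3 proteins sit on insulin granules and link them to effectors such as granuphilin, the product of Sytl4, before exocytosis. In the exocrine acinar cells that surround islets, Rab3d and Rab27b sit on the zymogen granules that carry digestive enzymes.

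The series measured total RNA of islets from female Sprague-Dawley rats on 11 Affymetrix Rat Gene 1.0 ST arrays. The HFD-father group held 5 arrays from daughters of fathers fed 43% fat, and the chow-father group 6 arrays from daughters of fathers fed chow with 9% fat. Fathers of both groups were mated at 15 weeks of age to chow-fed females, all daughters were weaned to chow at 3 weeks, and islets were taken at 13 weeks. Per the labels, glucose intolerance and a weak acute insulin response were found in the HFD-father daughters, and the comparison asks what a father's diet does to gene expression in his daughters' islets. Sample numbers are not tied in the labels to separate animals, litters or fathers. The p-values here rest on the spread between the arrays, which may be technical in part, and the precision is limited by how many arrays there are.

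All values below are deposited log2 levels, and every difference is a log2 one, HFD-father mean minus chow-father mean. The arrays form an earlier set of 8, with 4 per group, and a later set of 3, with HFD-father replicate 5 and chow-father replicates 5 and 6. Set means were equal in each probe to within 5.83e-05, so the values were centred per set before deposit. The main fit has no term for the sets and does not count this centring, so its p-values tend to be too small. Values of 1 set alone are given beside the results described at length. The second set holds 1 HFD-father array, so its values have no replicate there. Islet hormone transcripts were bright, with Ins1 at a mean of 14.26 and Gcg at 14.04. Acinar transcripts were bright too: of 19 listed acinar markers 18 were measured, and the dimmest of them, Rnase1, lay above 96.7% of probes. The mean of the acinar markers, centred over the arrays, ran from -0.13 to 0.39 in HFD-father and from -0.95 to 0.38 in chow-father arrays, with chow-father replicate 4 at -0.95. HFD-father replicate 1 stood apart in lymphocyte markers, whose centred mean was 1.04 there and at most 0.07 on the other arrays. That array also had the highest acinar (0.39), ductal (0.67), macrophage (0.69) and endothelial (0.30) means. Its islet endocrine mean was the lowest (-0.17), while its stellate and Schwann means were not at either end.

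No Rab gene passed the adjusted test. With limma, 0 of 53 Rab genes had an adjusted p under 0.05, and the same held for 0.0% of all 27342 probes. The lowest limma adjusted p of a Rab gene was 0.369 (Rab19), against 0.316 over all genes with a single symbol. At an unadjusted limma p under 0.05, 3 Rab genes were higher in HFD-father islets (Rab27a, Rab35 and Rab28), where 2.97% of all genes were, and 1 was lower (Rab19), where 5.28% of all genes were. For 1 Rab gene, Rab19, each HFD-father array was below each chow-father array, a pattern that 0.538% of all genes shared. The opposite pattern, every HFD-father array above every chow-father array, was seen in 0 Rab genes and in 0.349% of all genes. With the array set as a block Rab27a alone stayed under 0.05 on the higher side, while Rab35 and Rab28 no longer did, and without HFD-father replicate 1 the higher count was 7. In a family of this size each share of all genes in the main fit comes to fewer than 3 genes, close to the main fit's counts. The count of 7 comes from another fit, and its share of all genes is not given here.

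Across the family 37 genes were higher and 16 lower in HFD-father islets, or 69.8% higher, against 51.9% of all genes. The median difference was 0.03, against 0.00 over all genes, and it was 0.02 in the first array set and 0.10 in the second. The Rab genes are bright on this array: with all genes split by mean level into 4 classes of equal size, 28 of 53 fell in the brightest class and 14 in the next. Of all genes in the brightest class 70.9% were higher, and so were 24 of the 28 Rab genes there, with medians of 0.06 for the Rab genes and 0.03 for all genes of that class. In the next class 64.8% of all genes and 9 of 14 Rab genes were higher. The part of signal level in the direction of the family was not tested. The family median stayed above 0 after quantile normalization (0.02), median centring (0.06) and cyclic loess (0.02).

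**Figure D1:**
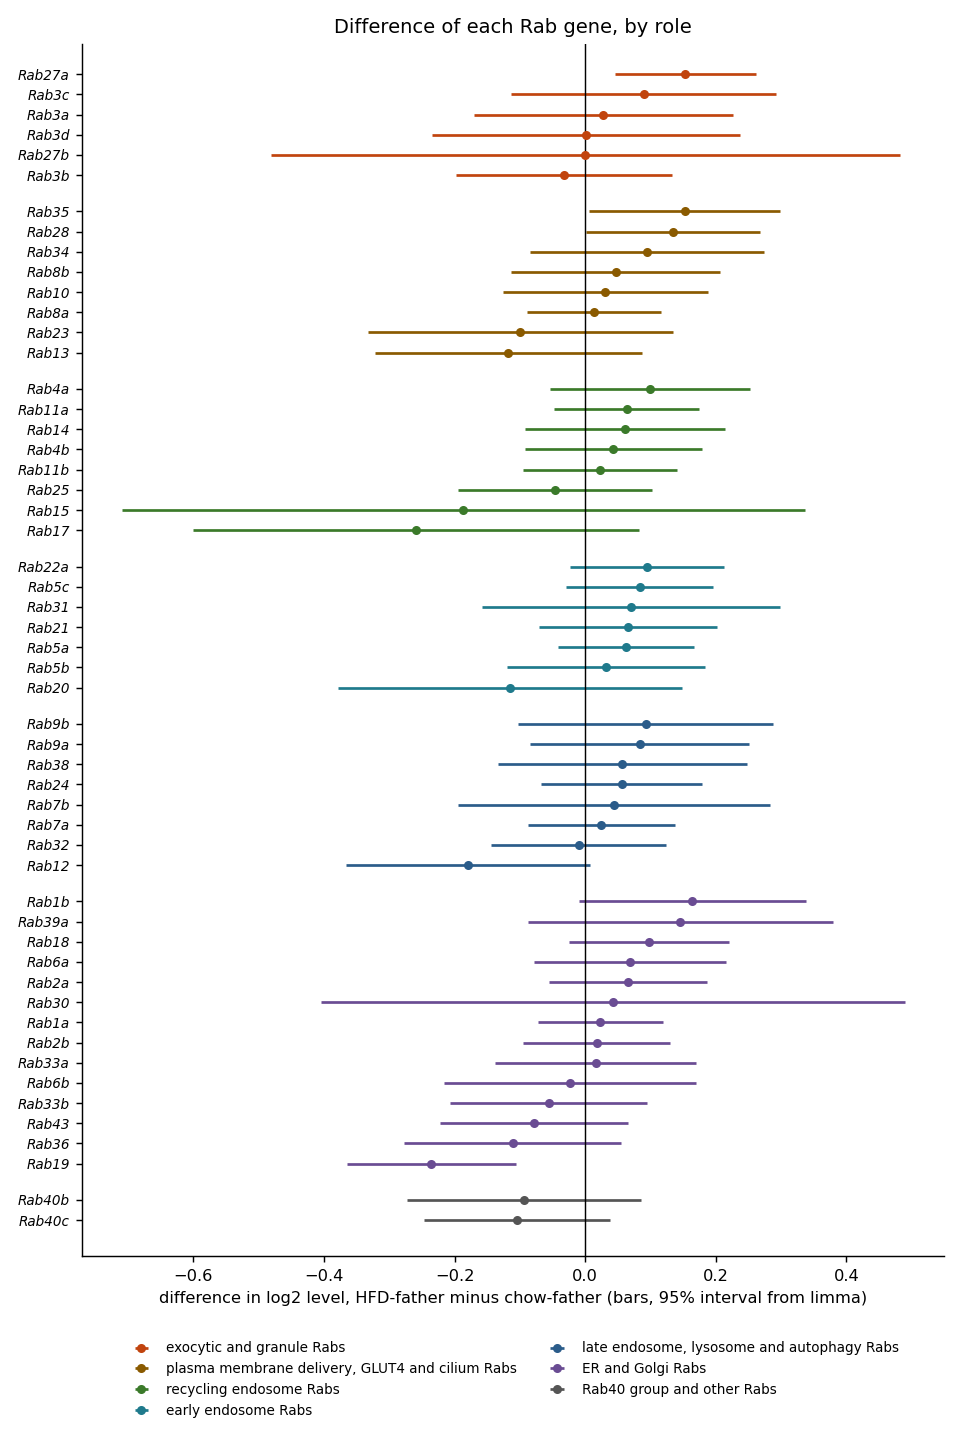
Difference of each of the 53 Rab genes between HFD-father (n = 5) and chow-father (n = 6) arrays on the log2 scale, grouped by role. Points are the fitted differences and bars the 95% intervals from limma; points right of 0 are higher in HFD-father islets, and the intervals of Rab27a, Rab35, Rab28 and Rab19 leave out 0 before adjustment.

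The exocytic Rabs act on secretory granules. Of 8 listed genes 6 were measured, of which 5 were higher and 1 lower, with a median difference of 0.01. That sign was not stable: the median was -0.05 in the first array set alone and 0.20 in the second. Rab27a, which marks insulin granules, had levels of 9.27, 9.33, 9.29, 9.10 and 9.26 in HFD-father islets. In chow-father islets its level ran from 9.05 over a median of 9.10 to 9.13. HFD-father replicates 1, 2, 3 and 5 lay above every chow-father array, and replicate 4 lay within their range. The means were 9.25 ± 0.09 (SD, n = 5) in HFD-father and 9.10 ± 0.03 (SD, n = 6) in chow-father islets, a difference of 0.15 ± 0.05 (SE) or 1.11-fold, with a limma adjusted p of 0.438. It was 0.16 in the first array set and 0.13 in the second, and between 0.13 and 0.19 with each replicate left out in turn.

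The Rab3 proteins, which act with Rab27a in regulated exocytosis, showed no such separation. Rab3a, the form best known from synaptic vesicles, had 8.04, 8.28, 8.40, 8.51 and 8.56 in HFD-father islets, against 8.15, 8.32 and 8.50 (lowest, median, highest) in chow-father islets. Its difference was 0.03 with a 95% interval from -0.17 to 0.23, and its sign changed in the first array set alone (-0.07). Rab3b, another granule Rab3, had 9.90, 9.73, 10.11, 10.08 and 9.97 in HFD-father islets, against 9.89, 9.96 and 10.17 (lowest, median, highest) in chow-father islets. The groups overlapped in both genes over most of their range. Rab3c had 9.54, 9.80, 9.71, 9.66 and 9.86 in HFD-father islets, against 9.30, 9.65 and 9.84 (lowest, median, highest) in chow-father islets, where replicate 6 was the low one. Differences were -0.03 for Rab3b (95% interval -0.20 to 0.13) and 0.09 for Rab3c (95% interval -0.11 to 0.29). That of Rab3c was 0.02 in the first array set and 0.29 in the second.

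Rab3d and Rab27b, the Rabs of zymogen granules, had equal group means but a wide spread. Rab27b had 7.13, 6.70, 6.38, 7.05 and 6.96 in HFD-father islets, against 5.99, 6.82 and 7.51 (lowest, median, highest) in chow-father islets. The lowest of these was chow-father replicate 4 and the highest chow-father replicate 1. The fitted difference was 0.00 with a 95% interval from -0.48 to 0.48, and it was -0.17 without chow-father replicate 4. Rab3d had 9.26, 9.08, 8.95, 9.15 and 9.29 in HFD-father islets, against 8.78, 9.20 and 9.47 (lowest, median, highest) in chow-father islets. Chow-father replicate 4 was again lowest and chow-father replicate 1 highest. Its difference was 0.00 with a 95% interval from -0.23 to 0.24, and -0.07 without chow-father replicate 4.

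**Figure D2:**
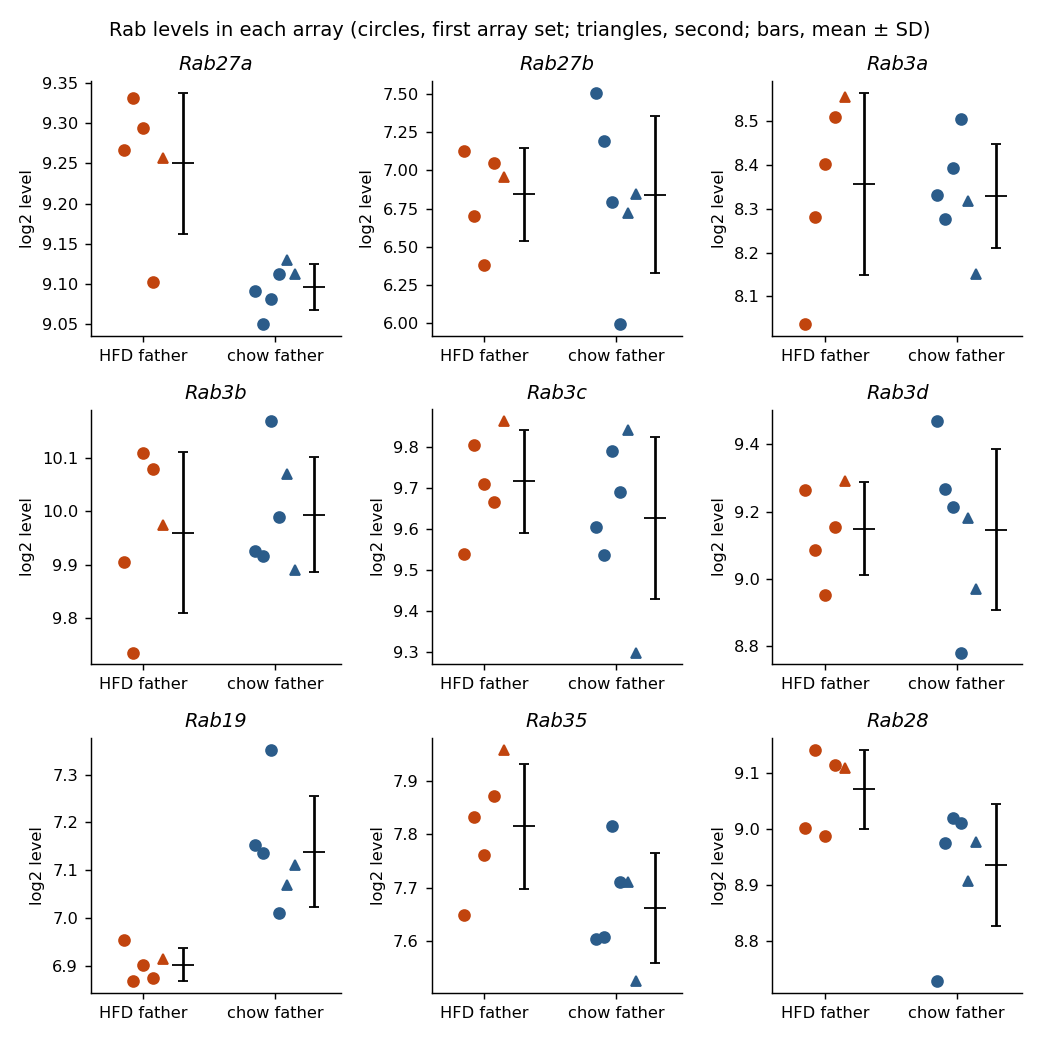
Log2 level of 9 Rab genes on each of the 11 arrays, HFD-father left and chow-father right in each panel; circles are the first array set, triangles the second, and bars the mean ± SD of each group. Each panel has its own axis. In Rab19 the 5 HFD-father arrays sit below all 6 chow-father arrays, in Rab27a 4 of 5 HFD-father arrays sit above all chow-father arrays, and the other panels overlap more widely.

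The Rabs of delivery to the plasma membrane and cilium numbered 8, of which 6 were higher and 2 lower, with a median difference of 0.04. This median was -0.01 in the first array set alone. Rab35, a Rab of endocytic recycling at the plasma membrane, had 7.65, 7.83, 7.76, 7.87 and 7.96 in HFD-father islets, against 7.52, 7.66 and 7.82 (lowest, median, highest) in chow-father islets. HFD-father replicates 2, 4 and 5 lay above the chow-father range. The difference was 0.15 ± 0.07 (SE) with a limma adjusted p of 0.519. It was 0.09 in the first array set and 0.34 in the second. Rab28, linked to photoreceptor cilia and to cone-rod dystrophy in humans, had 9.00, 9.14, 8.99, 9.11 and 9.11 in HFD-father islets, against 8.73, 8.98 and 9.02 (lowest, median, highest) in chow-father islets. Of its HFD-father arrays 3 exceeded the chow-father range, and chow-father replicate 1 was the lowest of all. Its difference of 0.135 ± 0.062 (SE, limma adjusted p = 0.531) was 0.09 without that replicate. Rab13, a Rab of epithelial junctions, gave a difference of -0.12 (95% interval -0.32 to 0.09).

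Among the 8 recycling endosome Rabs 5 were higher and 3 lower, with a median difference of 0.03. Rab11a, the central Rab of the recycling endosome, had 9.86, 9.83, 9.91, 9.95 and 10.02 in HFD-father islets, against 9.79, 9.85 and 9.91 (lowest, median, highest) in chow-father islets, a difference of 0.06 (95% interval -0.05 to 0.17) that was 0.02 in the first array set and 0.21 in the second. HFD-father replicates 4 and 5 lay above the chow-father range, and the others within it. Rab17, a Rab of epithelial transcytosis, had 6.53, 5.79, 5.71, 6.00 and 5.73 in HFD-father islets, against 5.89, 6.18 and 6.56 (lowest, median, highest) in chow-father islets. HFD-father replicates 2, 3 and 5 lay under the chow-father range and replicate 1 near its top. The difference of -0.26 ± 0.16 (SE) had a limma adjusted p of 0.640 and was -0.40 without HFD-father replicate 1. It was -0.17 in the first array set and -0.54 in the second. Rab15, named here after its values were seen, had the largest spread of the family, an SD of 0.46 over the 11 arrays, and its difference of -0.19 had an interval from -0.71 to 0.34.

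Early endosome Rabs, which drive fusion of incoming endocytic vesicles, were higher in 6 of 7 cases and lower in 1, with a median difference of 0.07 (0.04 in the first array set and 0.17 in the second). Rab5a, the main early endosome Rab, had 10.40, 10.49, 10.49, 10.33 and 10.50 in HFD-father islets, against 10.35, 10.38 and 10.43 (lowest, median, highest) in chow-father islets. HFD-father replicates 2, 3 and 5 lay above the chow-father range and replicate 4 below it. Both probes of Rab5a gave a difference near 0.06 to 0.07, and neither passed (limma adjusted p = 0.717 and 0.716). Rab22a, an early endosome Rab of sorting and recycling, had 8.64, 8.86, 8.91, 8.83 and 8.89 in HFD-father islets, against 8.70, 8.72 and 8.79 (lowest, median, highest) in chow-father islets. Of its HFD-father arrays 4 lay above the chow-father range and replicate 1 below it, for a difference of 0.09 (limma adjusted p = 0.619). The 2 probes of Rab5c, the third Rab5 form, differed in sign: 0.08 (95% interval -0.03 to 0.20) on the brighter and -0.0047 on the other. Rab21, a Rab of integrin uptake, gave 0.07.

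Late endosome, lysosome and autophagy Rabs were measured for 8 of 9 listed genes, of which 6 were higher and 2 lower, with a median difference of 0.05. Rab7a, which directs late endosomes and autophagosomes to lysosomes, had 11.37, 11.48, 11.57, 11.53 and 11.53 in HFD-father islets, against 11.40, 11.47 and 11.56 (lowest, median, highest) in chow-father islets. The ranges nearly coincided, and the difference was 0.02 with a 95% interval from -0.09 to 0.14. Rab12, which acts in receptor degradation and autophagy, had 8.01, 7.88, 7.93, 7.84 and 7.89 in HFD-father islets, against 7.91, 8.06 and 8.45 (lowest, median, highest) in chow-father islets. None of the 5 HFD-father arrays reached the chow-father mean, while chow-father replicate 1 stood high. Its difference was -0.18 ± 0.09 (SE, limma adjusted p = 0.547) on the brighter probe and -0.01 on the other, so the 2 probes do not show the same size. Rab9a, which returns cargo from late endosomes to the Golgi, gave 0.08 (95% interval -0.08 to 0.25).

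The ER and Golgi Rabs were the largest group, with 14 of 16 listed genes measured, 9 higher and 5 lower, and a median difference of 0.02. Rab19, a Rab first described at the Golgi, had 6.96, 6.87, 6.90, 6.87 and 6.91 in HFD-father islets, against 7.01, 7.12 and 7.35 (lowest, median, highest) in chow-father islets. Its HFD-father values lay close together and all below the chow-father range. The means were 6.90 ± 0.03 (SD, n = 5) in HFD-father and 7.14 ± 0.12 (SD, n = 6) in chow-father islets. The difference was -0.24 ± 0.06 (SE), a level 0.849 times that of chow-father islets, with a limma adjusted p of 0.369. It was -0.26 in the first array set, -0.18 in the second, and between -0.26 and -0.19 with each replicate left out.

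Among the Rabs that carry traffic between ER and Golgi, Rab1a, Rab2a and Rab6a differed by 0.07 or less on their brightest probe, while Rab1b had the largest positive difference of the 53 Rab genes. Rab1a, which guides vesicles from ER to Golgi, had 11.99, 12.07, 12.03, 12.00 and 12.09 in HFD-father islets, against 11.97, 12.01 and 12.08 (lowest, median, highest) in chow-father islets. Its difference was 0.02 (95% interval -0.07 to 0.12), and the dimmer probe of Rab1a gave 0.13 with a limma adjusted p of 0.492. Rab1a also had the smallest spread of the family, an SD of 0.04 over the 11 arrays. Rab1b, its close relative, had 9.00, 9.37, 9.31, 9.05 and 9.31 in HFD-father islets, against 8.90, 9.10 and 9.14 in chow-father islets by lowest, median and highest value. HFD-father replicates 2, 3 and 5 lay above the chow-father range, and the difference was 0.16 ± 0.08 (SE, limma adjusted p = 0.554) on the brighter probe and 0.12 on the other. The brighter probe gave 0.13 in the first array set and 0.29 in the second. Rab2a, which acts between ER and Golgi, gave 0.07 and Rab6a, which acts at the Golgi and in its retrograde traffic, also gave 0.07. Rab18, found on the ER and lipid droplets, gave 0.10 on the brighter probe and 0.06 on the other. Rab36 and Rab33b, both Golgi Rabs, gave -0.11 and -0.06, with intervals that held 0. Rab40c, one of 2 measured members of the Rab40 group, whose proteins carry a SOCS box that binds ubiquitin ligases, gave -0.10 (95% interval -0.25 to 0.04).

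The width of the intervals sets what these data can show for the family. The half-widths ran from 0.096 to 0.523 with a median of 0.153, and 42 of 53 intervals lay within 0.3 of 0 on the log2 scale. Rab genes varied over the 11 arrays about as much as other genes: the median SD was 0.12 for Rab genes and 0.12 for all genes. An SD above 0.3 was seen in 4 Rab genes (Rab15, Rab27b, Rab30 and Rab17) and one below 0.1 in 16.

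Much of the large spread of Rab27b and Rab30 ran with acinar transcripts. Each gene's level was set against the acinar marker mean over the 11 arrays, with two-sided permutation p-values adjusted over all 14306 genes tested, and the same was done with 7 other marker means. Positive correlations passed for 2 Rab genes, Rab30 and Rab27b, where 1.63% of all genes passed, and negative ones for 0 Rab genes, where 0.322% passed. Rab30, a Golgi Rab, had 7.12, 6.73, 6.32, 6.78 and 6.61 in HFD-father islets, against 6.00, 6.73 and 7.31 (lowest, median, highest) in chow-father islets. Its low and high ends were chow-father replicates 4 and 1, which were also the lowest and second highest in acinar markers. Pearson's r was 0.922 (permutation p = 1e-05, the smallest that these resamples can give, adjusted p = 0.00304), and Spearman's rho was 0.982 (permutation p = 2e-05, adjusted p = 0.0119). Without chow-father replicates 3 and 4, the farthest from the median of the acinar mean, r was 0.94 (exact permutation adjusted p = 0.0237). In the first array set alone r was 0.921 (exact permutation adjusted p = 0.0182).

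Rab27b followed the acinar mean with r = 0.875 (permutation p = 0.00049, adjusted p = 0.0335) and rho = 0.809 (permutation p = 0.004, adjusted p = 0.132). Without the same 2 arrays its r was 0.832 and no longer passed (exact permutation adjusted p = 0.301), and in the first array set it was 0.893 and did not pass either (exact permutation adjusted p = 0.141). Next in order, Rab9a had r = 0.766 (permutation adjusted p = 0.153) and 0.453 without the 2 arrays, a step that also narrows the acinar range. Its rho over all 11 arrays was 0.645. Whether the values of r differ was not tested. Rab3d, the other zymogen granule Rab, had r = 0.727 (permutation adjusted p = 0.203). At the other end lay Rab33b at -0.699, Rab40c at -0.611 and Rab21 at -0.603, none of which passed. Rab27a, the insulin granule Rab, had r = 0.08. In all 17 Rab genes correlated positively and 36 negatively, against 43.8% positive among all genes. In whole islet RNA, fewer cells of a type and less RNA per cell cannot be told apart.

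**Figure D3:**
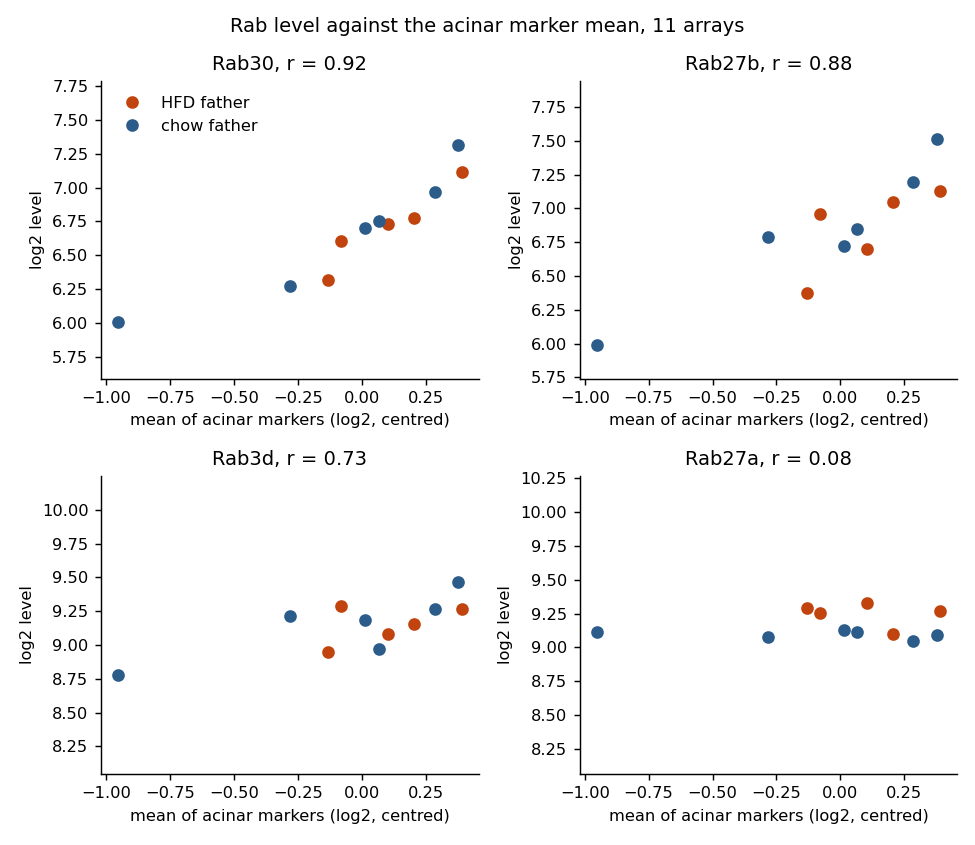
Log2 level of Rab30, Rab27b, Rab3d and Rab27a against the centred mean of the acinar markers on each of the 11 arrays, with HFD-father and chow-father arrays in separate colours and the same span of log2 values on every vertical axis. Rab30 and Rab27b climb with the acinar mean (r of 0.92 and 0.88), Rab3d less steeply, and Rab27a lies flat (r of 0.08) with HFD-father points above chow-father points at most acinar levels.

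The acinar mean moved together with ductal markers and opposite to islet endocrine markers. The ductal mean rests on 4 of 7 listed markers (Krt19, Cftr, Muc1 and Onecut1) and the endocrine mean on 12 of 14. Cftr, the dimmest ductal marker, lay above 42% of probes, and Muc1, the brightest, above 79.3%. Over the 11 arrays it correlated with the ductal marker mean at 0.851 and with the islet endocrine mean at -0.889, and the ductal and endocrine means correlated with each other at -0.942. Rab30 (r = 0.923, permutation adjusted p = 0.0168) and Rab27b (r = 0.905, permutation adjusted p = 0.0168) also passed with the ductal mean, where 2.28% of all genes passed on the positive side. Rab14, a Rab between Golgi and endosomes that is named here after its values were seen, passed on the negative side at r = -0.846 (permutation adjusted p = 0.0346), where 1.05% of all genes did. With the islet endocrine mean, Rab30 (r = -0.899, permutation adjusted p = 0.0245) and Rab27b (r = -0.894, permutation adjusted p = 0.0338) passed on the negative side, where 2.01% of all genes passed. On the positive side 0 Rab genes passed with the endocrine mean, against 0.615% of all genes. Spearman's rho had the same sign in each of these 5 relations (0.864 for both genes and -0.845 for Rab14 with the ductal mean, -0.891 for Rab30 and -0.873 for Rab27b with the endocrine mean), with permutation adjusted p-values from 0.0615 to 0.0893. Leaving out the 2 arrays farthest from the median, each kept its sign at an r of 0.773 or more in size, and 0 of the 5 passed. In that setting 0% of all genes passed with the ductal or the endocrine mean, so the missing calls say nothing particular about these Rab genes. With the endothelial, macrophage, lymphocyte, stellate and Schwann means 0 Rab genes passed. Of all genes 0.021% passed with the endothelial mean, on the positive side, and 0% with the others.

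**Figure D4:**
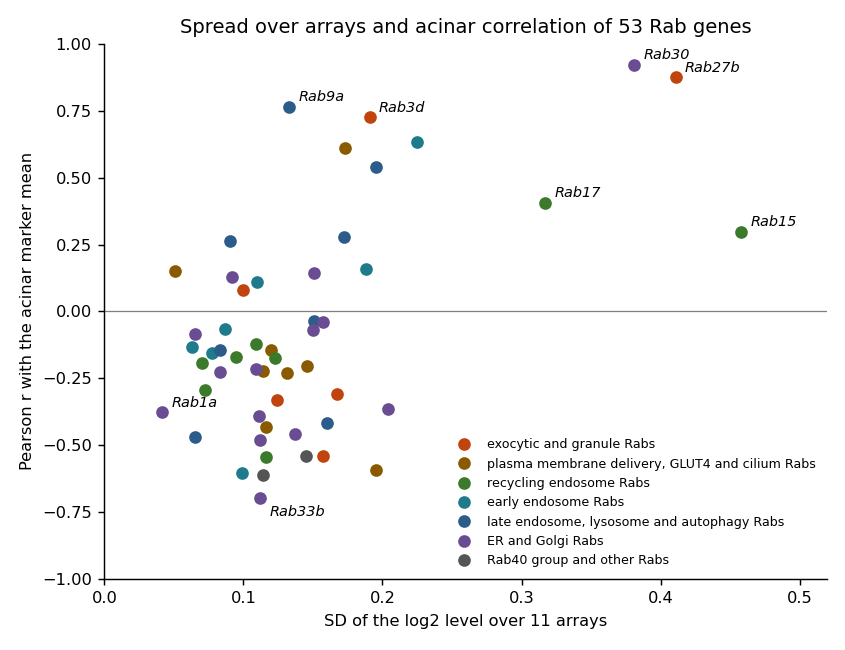
SD of the log2 level over the 11 arrays against Pearson's r with the acinar marker mean for the 53 Rab genes, coloured by role. Rab30 and Rab27b stand at the upper right, with a large spread and r near 0.9, while Rab15 and Rab17 also spread by over 0.3 but with r of 0.298 and 0.406, and most other genes lie at an SD under 0.2.

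With the acinar mean as a covariate in the fit, the group difference of Rab27b was -0.18 in place of 0.00 and that of Rab30 was -0.13 in place of 0.04, and neither passed (limma adjusted p = 0.554 and 0.581). Those of Rab27a (0.16) and Rab19 (-0.245) moved by 0.01 or less.

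The promoters of Rab30, Rab27b and Rab3d are shown because these genes ran with acinar transcripts or act on zymogen granules. Each is the RefSeq window of 300 bases, 250 upstream to 50 downstream of the gene's start, in build GRCr8, 5′ to 3′ on the gene's strand. Capitals mark CAGCTG, an E-box, the kind of site bound by basic helix-loop-helix factors, of which both exocrine and endocrine pancreas have their own.
Rab30, chr1:156215887-156216186, plus strand: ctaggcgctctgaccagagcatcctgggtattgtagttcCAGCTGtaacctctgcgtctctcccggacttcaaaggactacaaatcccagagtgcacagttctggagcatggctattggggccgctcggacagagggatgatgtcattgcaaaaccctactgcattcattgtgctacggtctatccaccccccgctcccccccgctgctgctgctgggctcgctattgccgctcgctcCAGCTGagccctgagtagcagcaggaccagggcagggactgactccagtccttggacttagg
Rab27b, chr18:65938534-65938833, minus strand: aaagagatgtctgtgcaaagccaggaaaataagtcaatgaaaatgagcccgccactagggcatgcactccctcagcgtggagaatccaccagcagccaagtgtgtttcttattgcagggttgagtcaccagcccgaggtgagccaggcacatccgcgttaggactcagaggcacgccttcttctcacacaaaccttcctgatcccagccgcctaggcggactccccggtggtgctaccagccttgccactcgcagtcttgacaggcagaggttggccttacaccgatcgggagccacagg
Rab3d, chr8:28725218-28725517, minus strand: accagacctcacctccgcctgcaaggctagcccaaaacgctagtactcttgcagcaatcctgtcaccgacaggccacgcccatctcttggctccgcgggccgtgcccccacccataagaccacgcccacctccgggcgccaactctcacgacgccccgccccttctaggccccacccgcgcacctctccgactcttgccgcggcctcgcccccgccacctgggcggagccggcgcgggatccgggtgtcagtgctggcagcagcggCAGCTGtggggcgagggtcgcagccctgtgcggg

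CAGCTG, which reads the same on both strands, occurred 2 times in the Rab30 window, 1 time in that of Rab3d and 0 times in that of Rab27b. Such windows were found for 44 of the 53 Rab genes, of which 9 (20.5%) held CAGCTG, against 15.1% of all 33469 windows. All windows were kept on length alone, without a limit to protein-coding or measured genes. The Rab windows were 1 per gene, all protein-coding. What this unlike makeup adds to the contrasts given here was not tested. Rab promoters were rich in CpG: 32 of 44 (72.7%) had over 50% GC and a CpG ratio (observed over expected) above 0.6, against 31% of all windows, with median GC of 64% for Rab genes and 51.7% for all. Of the windows shown, Rab3d met both limits (71% GC, CpG ratio 0.803), while Rab30 (58.3% GC, ratio 0.434) and Rab27b (57% GC, ratio 0.495) met the first but not the second. The TATA box letters TATAAA, on either strand, occurred in 0 of 44 Rab windows and in 14.2% of all windows. CCAAT, on either strand, occurred in 36.4% of Rab windows and 37.5% of all. The other E-boxes searched were CACGTG, in 4 Rab windows (9.09%) and 6.42% of all, and CATATG, in 0 Rab windows and 4.11% of all.

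The proteins that load, carry and switch off Rabs were described from listed partner genes, of which 62 of 89 were measured. Of these, 35 were higher and 27 lower, or 56.5% higher against 51.9% of all genes. The median difference was 0.01, and 0 genes passed the adjusted limma test. Of the core machinery that prenylates and escorts Rabs, 7 of 8 genes were measured, with 6 higher, 1 lower and a median of 0.02. All 7 fell in the 2 brighter of the 4 level classes, where 64.8% and 70.9% of all genes were higher. Gdi2, a GDP dissociation inhibitor, was 10.36 ± 0.06 (SD, n = 5) in HFD-father and 10.28 ± 0.03 (SD, n = 6) in chow-father islets, without overlap, a difference of 0.08 ± 0.05 (SE, limma adjusted p = 0.597). Such a separation, with HFD-father higher, was seen in 0.349% of all genes, and Gdi2 was picked for its low p. Rabggta, a subunit of the geranylgeranyl transferase, gave 0.07, and Chm, the escort protein REP-1, gave 0.06.

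Of the genes listed as granule effectors 3 were higher and 11 lower of 14 measured genes, with a median of -0.04 (-0.01 after median centring). In the 2 dimmer of the 4 level classes, where 34.2% and 37.9% of all genes were higher, 2 of 8 of these genes were. In the 2 brighter classes, where 64.8% and 70.9% of all genes were higher, 1 of 6 was. Rims1, a Rab3-binding scaffold of exocytic sites, averaged 5.22 ± 0.10 (SD, n = 5) in HFD-father and 5.38 ± 0.08 (SD, n = 6) in chow-father islets, a difference of -0.16 (limma adjusted p = 0.483) that was -0.11 in the first array set and -0.32 in the second. Rims4, a short member of that family, gave -0.18 (-0.13 in the first set and -0.34 in the second). Whether this short form binds Rabs was not examined here. Sytl3, an effector of Rab27, gave -0.13. These 3 sit low on the array's scale, at means of 5 to 6. Sytl4, the granuphilin gene, is named after its values were seen and for its role beside Rab27a: it gave 0.11 with a 95% interval from -0.06 to 0.28, and 0.05 in the first array set and 0.33 in the second.

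Endosomal effectors held 5 higher and 6 lower of 11 measured genes, with a median of -0.04 that became 0.00 without chow-father replicate 4. Appl2, a Rab5 effector, gave -0.15 (-0.05 in the first array set and -0.44 in the second), Rab11fip1, which binds Rab11, gave -0.08, and Rabep1, the Rab5 effector rabaptin-5, gave 0.09. Exchange factors held 7 higher and 4 lower of 11, with a median of 0.04. From the second dimmest to the brightest level class 2 of 4, 1 of 3 and 4 of 4 were higher. Of all genes in those classes 37.9%, 64.8% and 70.9% were. Mon1b, part of the exchange factor for Rab7, averaged 6.77 ± 0.05 (SD, n = 5) in HFD-father and 6.90 ± 0.09 (SD, n = 6) in chow-father islets, without overlap, a difference of -0.14 ± 0.05 (SE, limma adjusted p = 0.491). Such a separation, with HFD-father lower, was seen in 0.538% of all genes, and Mon1b was picked for its low p. Dennd6a, an exchange factor of Rab14, gave 0.09 and Rin1, one of Rab5, gave -0.10. GTPase-activating proteins held 14 higher and 5 lower of 19, or 73.7% higher, with a median of 0.03. In the 2 brighter level classes 3 of 7 and 9 of 10 were higher, where 64.8% and 70.9% of all genes were. The part of signal level in these counts was not tested. The genes of lowest p were Tbc1d14 (0.08), Tbc1d24 (0.09) and Tbc1d5 (0.06), none of which passed.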

How the data were processed

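Islet RNA of 11 female rats' samples was measured on one-colour arrays. The deposited values per gene are log2 levels, normalized between arrays by the authors; the submitters' processing notes name RMA and MAS5 with no role or order, and background correction is not given in the sources used here. The log2 scale and the centring per array set were found from the values. An exon-level table was not used, since its features are not paired with genes. Symbols came from the platform table and were updated to RefSeq by Entrez number for 15067 of 15097 single-symbol probes; 323 probes had several symbols and 11922 none. The probe of highest mean stood for each gene.

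Groups were compared with limma 3.58.1 (R 4.3.3; lmFit and eBayes, two-sided) on all 27342 probes, with no covariate and no filter, Benjamini-Hochberg adjusted at 0.05; adjusted p-values of differences are from this fit. Correlations used 100000 permutations (exact for 9 or fewer arrays). They were to be adjusted over the Rab genes alone, and were adjusted over all genes instead. The members and lists were chosen with earlier results of these data known. Named Rab genes were all exocytic Rabs, 6 organelle Rabs (Rab1a, Rab2a, Rab5a, Rab6a, Rab7a and Rab11a), up to 6 per direction of lowest p, the 3 highest and 3 lowest acinar correlations, and genes whose probes disagreed in sign; each partner list gave its 3 genes of lowest p. Alternatives were blocks for replicate number or array set, each set alone, 3 normalizations, a filter on dim probes, the acinar mean as covariate, averaged probes, an eBayes trend and leaving out 1 replicate at a time. Scripts were tested on simulated data.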

Additional observations from a re-analysis of the deposited data

Results flagged for a closer look

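In 56 groups of 5 or 6 arrays (28 named Rab genes in both father groups), 2 held an array far from the others by Dixon's criterion, where chance at 1 in 20 would give 2.8. For Rab22a, HFD-father replicate 1 was the lowest array at 8.645, with the nearest of its group at 8.833, a gap of 0.712 of the group's range against a critical value of 0.71. For Rab5c, HFD-father replicate 5 was the highest at 9.253, with the nearest at 9.142, a gap of 0.74 of the range.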

How the results depend on the processing

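In every alternative fit with a test, 0 Rab genes passed limma's adjusted threshold. The number of arrays limits the precision, and no detection calls were used here, so signal over background is unknown for dim genes such as Rab20, the 1 Rab gene in the dimmest of 3 equal classes of probes. In the second array set alone (1 HFD-father array against 2 chow-father arrays, no test) medians moved to 0.0994 for all Rab genes, 0.195 for exocytic, 0.151 for plasma membrane, 0.167 for early endosome, 0.0816 for ER and Golgi and 0.0699 for Rab40 Rabs, -0.0545 for the core machinery, 0.0525 for endosomal effectors and 0.0662 for GTPase-activating proteins. With each replicate left out, the median of endosomal effectors ran from -0.0514 to 3.8e-05.

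The count higher at an unadjusted p under 0.05 was 1 with the array set as a block, in the first set alone and after quantile normalization, and ran from 1 (without HFD-father replicate 2 or 5 or chow-father replicate 6) to 7 (without HFD-father replicate 1). The count lower was 2 with an eBayes trend and with cyclic loess, 3 after quantile normalization, 4 with the acinar covariate, and 1 to 3 with a replicate left out (2 without chow-father replicate 2 or 4, 3 without HFD-father replicate 1). Shares of all genes at this unadjusted p are not given here for the alternative fits. Acinar calls were 1 in the first set alone, where 0.685% of all genes passed on the positive side. Without the 2 extreme arrays they were also 1, where 0.217% of all genes passed on that side.

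Same-numbered samples showed no consistent sign of pairing (correlations of same-numbered deviations 0.33, -0.031, 0.0048, -0.025 and -0.32). These values cannot exclude a pairing. With the replicate block the counts were 1 higher and 2 lower, and Rab3a gave -0.00795 and Rab3d -0.0334.

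Differences near 0 changed sign. Rab27b gave -0.0582 in the first set, -0.00188 after quantile normalization, -0.181 with the acinar covariate and -0.17 to 0.134 with a replicate left out. Rab3d gave -0.0692 in the first set, -0.0261 after quantile normalization, -0.0274 with cyclic loess, -0.0679 with the covariate and -0.0714 to 0.0662 with a replicate left out. Rab3a gave -0.0695 in the first set and -0.0222 to 0.108 with a replicate left out. Rab1a gave -0.00315 in the first set and -0.0302 after quantile normalization, and Rab7a -0.00281 after quantile normalization. Rab30 gave -0.12 in the second set, -0.132 with the covariate and -0.0909 to 0.171 with a replicate left out. Rab33b gave 0.0994 in the second set and -0.0961 to 0.00113, and Rab3b -0.0709 to 0.0238, with a replicate left out. The causes were not tested.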
